A study of Mus musculus with 10 samples.

Results

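The CC chemokines Ccl2, Ccl3, Ccl4, Ccl5, Ccl6, Ccl7, Ccl9 and Ccl12 and the receptors Ccr1 and Ccr2 were followed in Ly6G-selected cells of infarcted mouse hearts and of blood. They were chosen by name, as 8 ligands and 2 receptors, and are 10 of the 28185 genes in the deposited table. Male C57Bl/6J mice, 12 to 16 weeks old, underwent ligation of the left coronary artery (LCA), and cells were collected 3 days later from the left ventricle below the ligature and from blood, and were positively selected with anti-Ly6G microbeads. Treated mice had received syngeneic bone marrow mesenchymal stromal cells (MSC) under the skin at 3 sites, 1000000 cells per site, shortly after ligation. The groups were MI (heart without MSC, n = 3, libraries 13, 19 and 20), MI+MSC (heart with MSC, n = 3, libraries 15, 17 and 18), Blood (blood without MSC, n = 2, libraries 21 and 22) and Blood+MSC (blood with MSC, n = 2, libraries 23 and 24). Every group, blood included, came from mice with an infarct, so no library shows these genes without infarction. No label ties a heart library to a blood library of one animal, and p-values measure the spread between these libraries.

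CC chemokines are small secreted proteins with adjacent cysteines near their amino terminus, and they act on leukocytes through receptors coupled to inhibitory G proteins. Ccl2, Ccl7 and Ccl12 are ligands of Ccr2, the receptor by which inflammatory monocytes leave the bone marrow and enter an infarct. Ccl3, Ccl5, Ccl6 and Ccl9 act on Ccr1, a receptor of neutrophils, monocytes and macrophages. Ccl4 attracts monocytes and lymphocytes.

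Levels are given as normalized counts, that is reads per gene divided by a scaling factor of each library, and the reads behind them were recovered from the table. Reads on genes ranged from 148594 in MI library 13 to 8602711 in Blood+MSC library 24, and 1 read was worth 8.40 normalized counts in MI library 13, 7.07 in Blood library 21 and between 0.168 and 2.30 in the other libraries. The gene of the selected protein, Ly6g, ran from 4.75 to 26.9 normalized counts over the 6 cardiac libraries and from 41.2 to 645 over the 4 of blood. The summed level of 13 neutrophil markers ranged from 2563 to 8153 for MI, from 2841 to 13603 for MI+MSC, from 16844 to 23843 for Blood+MSC and from 44886 to 54568 for Blood. Heart muscle markers (8 genes) summed to 3138 up to 24250 in heart but only to 14.3 up to 63.6 in blood, and macrophage markers (12 genes) to 5463 up to 22918 in heart and 6288 up to 10923 in blood. Monocyte markers (9 genes) summed to 4143 up to 7591 in heart and 3872 up to 8919 in blood, and platelet markers (9 genes) to 29251 in Blood library 21. The cardiac libraries therefore held transcripts of cells other than neutrophils, and blood was not free of such transcripts. In such bulk samples fewer cells of a type and less RNA per cell cannot be told apart.

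The 8 ligands lie on chromosome 11 (GRCm39) in groups of near neighbours. Ccl2 (chr11:81926397-81928279, plus strand), Ccl7 (chr11:81936532-81938351, plus) and Ccl12 (chr11:81992645-81994466, plus) follow each other with gaps of 8252 and 54293 bases. The other ligands begin 1422135 bases further on, with Ccl5 (chr11:83416602-83425942, minus strand), Ccl9 (chr11:83463745-83473161, minus), Ccl6 (chr11:83478708-83483913, minus), Ccl3 (chr11:83538670-83540191, minus) and Ccl4 (chr11:83553383-83555509, plus). The gap between Ccl9 and Ccl6 was 5546 bases and that between Ccl3 and Ccl4 was 13191. Ccr1 (chr9:123762161-123768734, minus) and Ccr2 (chr9:123901982-123913594, plus) stand 133247 bases apart on chromosome 9. Annotated genes on the opposite strand overlap Ccl3, Ccl5, Ccl6 and Ccl9, and the reads were counted by strand.

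RefSeq promoter sequences (GRCm38.p6) were at hand for 6 members, Ccl3, Ccl6, Ccl9, Ccl12, Ccr1 and Ccr2, but not for Ccl2, Ccl4, Ccl5 and Ccl7. The 250 bases before the start of the 4 ligands among them are shown because they stand for the 3 ligand patterns described below, with Ccl12 for the Ccr2 ligands, Ccl3 for the pair Ccl3 and Ccl4, and the neighbours Ccl6 and Ccl9. They lie at chr11:82101595-82101844 (plus), chr11:83649379-83649628 (minus), chr11:83593088-83593337 (minus) and chr11:83578637-83578886 (minus), in this order. Capitals mark matches, on either strand, to the letters of an NF-kB-type motif (GGGANNNNCC), of an AP-1-type motif (TGANTCA), of a C/EBP-type motif (TTGCNNAA) or of a TATA box (TATAAA), where N is any base.
Ccl12: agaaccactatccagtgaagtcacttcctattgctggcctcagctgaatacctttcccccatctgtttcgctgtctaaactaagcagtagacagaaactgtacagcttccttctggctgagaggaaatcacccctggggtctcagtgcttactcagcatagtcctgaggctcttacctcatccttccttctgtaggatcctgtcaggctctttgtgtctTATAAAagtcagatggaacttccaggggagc
Ccl3: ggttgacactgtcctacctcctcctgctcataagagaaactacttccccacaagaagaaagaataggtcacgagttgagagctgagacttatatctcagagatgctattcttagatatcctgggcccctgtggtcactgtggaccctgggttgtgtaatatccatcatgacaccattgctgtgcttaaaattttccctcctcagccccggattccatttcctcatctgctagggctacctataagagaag
Ccl6: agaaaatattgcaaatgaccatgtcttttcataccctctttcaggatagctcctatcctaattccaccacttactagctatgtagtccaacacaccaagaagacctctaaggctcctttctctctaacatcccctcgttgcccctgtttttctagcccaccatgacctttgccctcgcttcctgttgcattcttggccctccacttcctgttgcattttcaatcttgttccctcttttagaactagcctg
Ccl9: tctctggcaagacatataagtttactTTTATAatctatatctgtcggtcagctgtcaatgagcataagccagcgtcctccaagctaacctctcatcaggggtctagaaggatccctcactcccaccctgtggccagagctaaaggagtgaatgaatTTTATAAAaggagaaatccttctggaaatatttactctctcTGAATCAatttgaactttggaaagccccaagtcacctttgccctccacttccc
Ccl12 held TATAAA with its first base 31 bases before the start. Ccl9 held the AP-1-type letters TGAATCA at 53 bases and TATA box letters at 92, 94 and 224 bases before the start, the first pair of which overlap on opposite strands. Neither Ccl3 nor Ccl6 held any of the 4 motifs in this window, nor did Ccr2, while Ccr1 held GGGAGGCTCC, an NF-kB-type match, with its first base 74 bases before the start. Among 32851 promoters of the same length, 17.6% held the NF-kB-type letters, 6.75% the AP-1-type, 9.56% the C/EBP-type and 12.4% the TATA box. A match is a description of the letters and not a site of binding.

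Ccl2, the chief attractant of Ccr2-bearing monocytes, was higher in every cardiac library than in any blood library. MI libraries 13, 19 and 20 held 261, 679.6 and 559 normalized counts of it, and MI+MSC libraries 15, 17 and 18 held 459.6, 264 and 495. Blood libraries 21 and 22 held 163 and 76.7, and Blood+MSC libraries 23 and 24 held 46.0 and 55.7. The mean was 453 ± 166 (SD, n = 6) for heart and 85.2 ± 53.1 (SD, n = 4) for blood.

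Ccl7, which shares Ccr2 with Ccl2 and lies next to it, followed the same order of libraries closely. The MI libraries held 134, 531 and 416 normalized counts, those of MI+MSC 347, 232 and 422, those of Blood 120.1 and 80.6, and those of Blood+MSC 29.4 and 30.6. The cardiac and blood libraries again did not overlap, although MI library 13, with 16 Ccl7 reads, and Blood library 21, with 17, came close. Ccl12, the mouse monocyte chemoattractant protein 5, was the least abundant of these ligands. It stood at 8.40, 145 and 86.0 for MI, at 85.8, 48.2 and 102 for MI+MSC, at 21.2 and 14.3 for Blood, and at 2.36 and 7.57 for Blood+MSC. The value of MI library 13 rested on 1 read and that of Blood library 21 on 3 reads, and 5 of the 6 cardiac libraries were above every blood library.

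**Figure D1:**
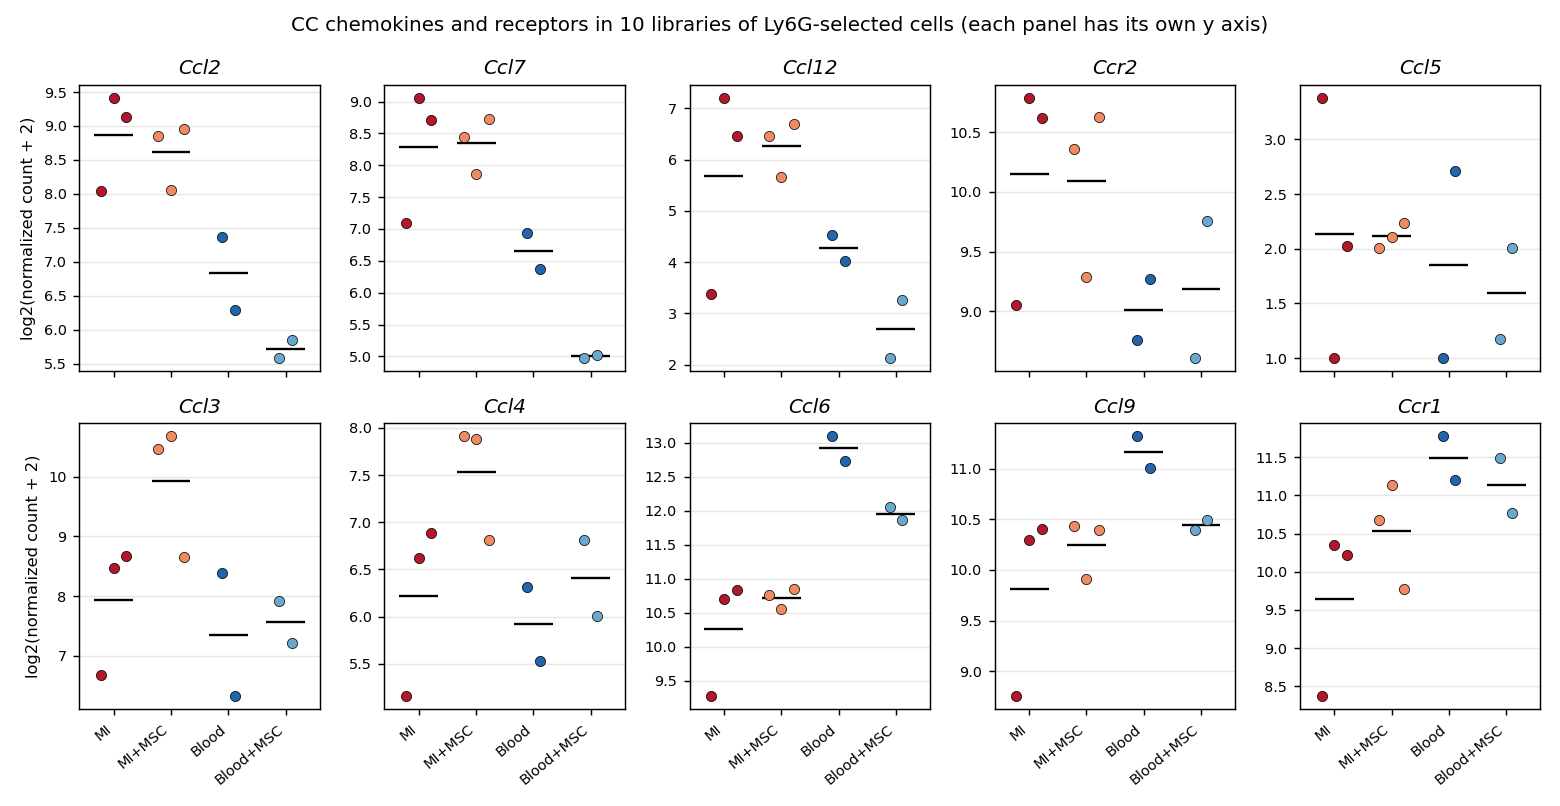
Level of each member, as log2(normalized count + 2), in every library, with 1 panel per gene and its own vertical axis. Points are libraries, in the order of their numbers within a group (3 in MI, 3 in MI+MSC, 2 in Blood, 2 in Blood+MSC), and lines are group means. The cardiac points of Ccl2 and Ccl7 lie above all blood points, those of Ccl6 lie below, and MI library 13 is the lowest cardiac point of every tested member.

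The question of heart against blood was put to all 10 libraries with limma on log2(normalized count + 2), as the mean of the cardiac groups against the mean of the blood groups. A gene was called where its Benjamini-Hochberg adjusted p-value over 11549 tested genes was under 0.05 and its log2 fold change at least 0.5 in size. Of the 10 members, 9 had the mean of 10 normalized counts needed for the test and Ccl5 did not. Of these 9, 4 were called higher in heart (Ccl2, Ccl7, Ccl12 and Ccl3), against 25.3% of all tested genes, and 2 were called lower (Ccl6 and Ccr1), against 18.1%. The median log2 fold change of the 9 members was 1.02, beside 0.12 over all tested genes. In both directions, 43.4% of tested genes were called, so the members' calls stand against a broad difference between the tissues.

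The 3 ligands of Ccr2 had the greatest differences. Ccl2 was higher in heart by 2.47 on the log2 scale (SE 0.33, limma adjusted p = 0.000197), a 5.53-fold difference. Ccl7 was higher by 2.49 (SE 0.36, limma adjusted p = 0.000333) and Ccl12 by 2.49 (SE 0.63, limma adjusted p = 0.00881). These 3 calls were kept under every alternative, including those that left out a library. In a two-sided exact permutation test of the 6 cardiac against the 4 blood libraries, made for each of the 10 members and not adjusted, p was 0.00952 for Ccl2 and Ccl7, the smallest this design can give, and 0.0286 for Ccl12. Groups without overlap were found for Ccl2 and Ccl7 on the higher side, where 19.1% of tested genes showed this, and for Ccl6 on the lower side, where 14.0% did.

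Ccr2, the receptor of these ligands, was higher in heart on average but varied widely within groups. The MI libraries held 529, 1764 and 1569 normalized counts, those of MI+MSC 1309, 624 and 1578, those of Blood 431 and 616, and those of Blood+MSC 388 and 864. MI library 13 and MI+MSC library 17 lay within the range of the blood libraries. The log2 fold change was 1.02 (SE 0.42, limma adjusted p = 0.0681, exact permutation p = 0.0667), so Ccr2 was not called. Leaving out MI library 13 gave an adjusted p of 0.0119 and leaving out MI+MSC library 17 gave 0.0426, and edgeR (0.0464), DESeq2 (0.00658) and library size scaling (0.0215) also called Ccr2 higher in heart. edgeR called 26.8% and DESeq2 27.7% of all tested genes higher in this comparison.

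Ccl3, also known as macrophage inflammatory protein 1 alpha, set apart a pair of the MSC-treated hearts. It reached 1415, 1630.1 and 399 normalized counts in MI+MSC libraries 15, 17 and 18, beside 101, 352 and 407 without MSC. The Blood libraries held 332 and 78.0, and those of Blood+MSC 239.8 and 146. MI+MSC libraries 15 and 17 were thus at least 3 times as high as any other library, while MI+MSC library 18 lay between the MI libraries 19 and 20. Ccl4, macrophage inflammatory protein 1 beta and the close neighbour of Ccl3, had the same libraries on top with a smaller span. It stood at 239, 234 and 111 for MI+MSC, at 33.6, 96.1 and 116 for MI, at 77.7 and 44.2 for Blood, and at 111 and 62.4 for Blood+MSC.

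Between heart and blood, Ccl3 was called higher by 1.48 on the log2 scale (SE 0.54, limma adjusted p = 0.0461), while the exact permutation test gave p = 0.0952. The Ccl3 call was lost when any of MI libraries 19 and 20, MI+MSC libraries 15 and 17, Blood library 22 or Blood+MSC libraries 23 and 24 was left out (adjusted p from 0.0774 to 0.189), with TMM scaling (0.0630) and with a mean minimum of 20 (0.0505). Ccl4 was not called, with a log2 fold change of 0.71 (SE 0.38, limma adjusted p = 0.149, exact permutation p = 0.257). It was called higher with library size scaling (adjusted p = 0.0327), edgeR (0.0329), DESeq2 (0.0284) and voom (0.0193), and without MI library 13 (0.0265).

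Ccl6 was the most abundant ligand of blood. Blood libraries 21 and 22 held 8761 and 6839 normalized counts, and Blood+MSC libraries 23 and 24 held 4271 and 3716. The hearts held 614, 1655 and 1819 without MSC and 1726, 1495 and 1844 with MSC. Every blood library stood at more than 2 times the level of every cardiac library, and the log2 fold change of heart against blood was -1.95 (SE 0.38, limma adjusted p = 0.00217, exact permutation p = 0.00952), a call kept under every alternative. Ccl9, which lies next to Ccl6 and also acts on Ccr1, stood at 2551 and 2056 for Blood, at 1339 and 1443 for Blood+MSC, at 429, 1252 and 1351 for MI, and at 1379.6, 957 and 1339.6 for MI+MSC. The Blood libraries were above all others, while the Blood+MSC libraries lay close to most cardiac ones. Its log2 fold change was -0.77 (SE 0.36, limma adjusted p = 0.0976, exact permutation p = 0.0381), and Ccl9 was not called, though DESeq2 called it lower (adjusted p = 0.0428), beside 20.8% of tested genes.

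Ccr1, the receptor shared by Ccl3, Ccl5, Ccl6 and Ccl9, was lower in heart than in blood. The MI libraries held 328, 1308 and 1187 normalized counts, those of MI+MSC 1643, 2241 and 877, those of Blood 3497 and 2358, and those of Blood+MSC 2879 and 1743. MI+MSC library 17 was above Blood+MSC library 24, and the tissues overlapped at this point alone. The log2 fold change was -1.22 (SE 0.45, limma adjusted p = 0.0461, exact permutation p = 0.0190). The Ccr1 call was lost with library size scaling (adjusted p = 0.0812) and when any of MI+MSC libraries 15 and 18, Blood libraries 21 and 22 or Blood+MSC libraries 23 and 24 was left out (from 0.0596 to 0.166).

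Ccl5, an attractant of T cells, monocytes and eosinophils, was close to the limit of detection. It had 1, 0 and 4 reads in the MI libraries, 3, 1 and 4 in those of MI+MSC, 0 and 7 in those of Blood and 1 and 12 in those of Blood+MSC, and its mean over all libraries was 2.43 normalized counts. A count of 0 reads allows up to 3 reads, which is 2.88 normalized counts in MI library 19 and 21.2 in Blood library 21. No difference in Ccl5 was detectable at this depth (exact permutation p = 0.410). Trac and Cd3e, defining genes of T cells, which make Ccl5, were also low, with at most 13.6 and 33.6 normalized counts in any library. The value of 33.6 came from 4 reads in MI library 13. The 12 T and NK cell markers summed to between 17.6 and 272. Of these, only Il7r reached the mean needed for a test. It was called higher in heart (log2 fold change 3.30, limma adjusted p = 0.00618), beside 25.3% of tested genes. The part of T cells in the level of Ccl5 was not tested.

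**Figure D2:**
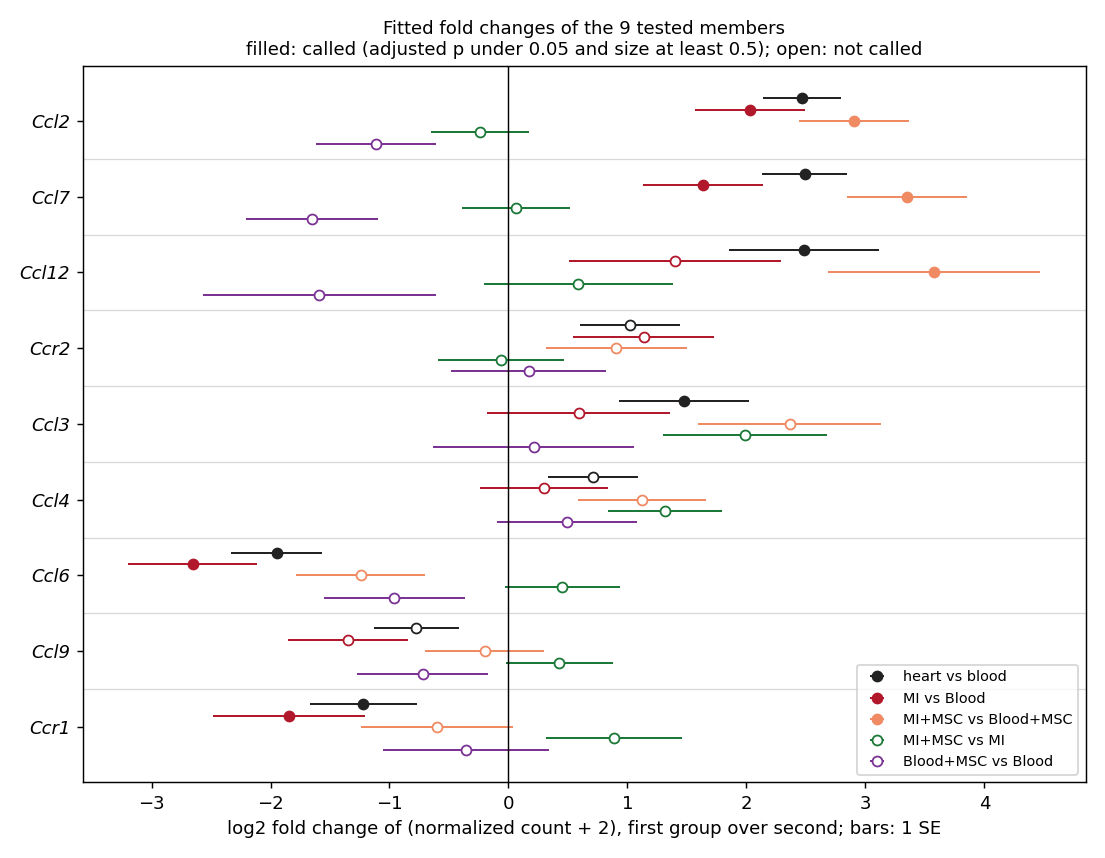
Fitted log2 fold change of (normalized count + 2) for the 9 tested members in 5 comparisons, with bars of 1 SE. Filled points were called and open points were not. All filled points belong to comparisons of heart with blood, to the right for Ccl2, Ccl7, Ccl12 and Ccl3 and to the left for Ccl6 and Ccr1, and all points of MI+MSC vs MI and Blood+MSC vs Blood are open.

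Heart was compared with blood separately without and with MSC. The groups of these comparisons share no library, but both use the same estimate of spread, taken from all 10 libraries. Without MSC (MI vs Blood), limma called Ccl2 and Ccl7 higher, against 21.2% of tested genes, and Ccl6 and Ccr1 lower, against 13.5%. The log2 fold changes were 2.03 (SE 0.46, limma adjusted p = 0.00735) for Ccl2, 1.64 (SE 0.51, limma adjusted p = 0.0284) for Ccl7, -2.66 (SE 0.54, limma adjusted p = 0.00429) for Ccl6 and -1.84 (SE 0.64, limma adjusted p = 0.0433) for Ccr1. The MI and Blood libraries did not overlap for Ccl2 and Ccl7 on the higher side (31.6% of tested genes) and for Ccl6, Ccl9 and Ccr1 on the lower side (23.6%). Ccl12, at a log2 fold change of 1.40 (limma adjusted p = 0.239), was not called without MSC, though it was when MI library 13, with its single read, was left out (adjusted p = 0.00613). With all libraries kept, edgeR gave it a log2 fold change of 2.57 (adjusted p = 0.0152) and DESeq2 one of 2.42 (0.00942), both calls, beside 17.7% and 18.7% of tested genes called higher by these tools. DESeq2 also called Ccr2 higher (adjusted p = 0.0387) and Ccl9 lower (0.0147, beside 15.7% of tested genes), as did some other alternatives. Ccl3 was called in this comparison only when MI library 13 and Blood library 21, the shallowest, were both left out, at a log2 fold change of 2.25 (adjusted p = 0.0304) against 0.59 with them. The call of Ccl2 was lost without Blood library 22 (adjusted p = 0.0540), and that of Ccl7 without that library, MI library 19 or MI library 20 (0.0729 to 0.132). Ccr1 lost its call without MI library 13, MI+MSC library 15 or 17, or any of the 4 blood libraries (adjusted p from 0.0526 to 0.176), and with library size scaling (0.0827). A fit of the MI and Blood libraries alone called neither Ccl7 (adjusted p = 0.0889) nor Ccr1 (0.108).

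With MSC (MI+MSC vs Blood+MSC), limma called Ccl2, Ccl7 and Ccl12 higher, against 8.23% of tested genes, and none of the members lower, against 5.85%. The log2 fold changes were 2.90 (SE 0.46, limma adjusted p = 0.00259) for Ccl2, 3.35 (SE 0.51, limma adjusted p = 0.00206) for Ccl7 and 3.58 (SE 0.89, limma adjusted p = 0.0229) for Ccl12. Ccl12 lost its call without MI+MSC library 15 or 18 or Blood+MSC library 23 or 24 (adjusted p from 0.0681 to 0.236), while Ccl2 and Ccl7 kept theirs in every fit. Ccl3 was higher by 2.36 (SE 0.77, limma adjusted p = 0.0615) without being called, and its call turned on the alternative. edgeR (adjusted p = 0.0207) and DESeq2 (0.000918) called it, beside 16.4% and 17.8% of tested genes called higher, as did voom (0.0101), the compared groups alone (0.0141), library size scaling (0.0399), no filter (0.0462) and the fits without MI library 13, MI+MSC library 18 or either Blood library (0.0354 to 0.0406). Among the tested members, the MI+MSC and Blood+MSC libraries did not overlap for Ccl2, Ccl7, Ccl12 and Ccl3 on the higher side (33.8% of tested genes) and for Ccl6 on the lower side (29.7%). Ccl5, which was not tested, was apart by a hair, at 2.03 or more with MSC in heart and 2.02 or less with MSC in blood, on 1 to 12 reads. Ccl6 had a log2 fold change of -1.24 (SE 0.54, limma adjusted p = 0.142) and was called lower by DESeq2 (adjusted p = 0.00914, beside 11.2% of tested genes), in the compared groups alone (0.0244) and without MI library 13 (0.0152). Whether a tissue difference itself depended on MSC is the interaction reported below.

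The effect of MSC in the heart was taken from MI+MSC vs MI. No member was called, and limma called 0.00% of all tested genes in either direction, with 925 genes (8.01%) at an unadjusted p under 0.05. edgeR also called 0 genes, DESeq2 called 21 higher (0.182%) and 55 lower (0.476%), and no member was among them. Ccl3 and Ccl4 were the members with an unadjusted p under 0.05. Ccl3 averaged 1148 ± 658 normalized counts with MSC and 286 ± 163 without (SD, n = 3 each). Its log2 fold change was 1.99 (SE 0.69, limma adjusted p = 0.545). Ccl4 averaged 194 ± 72.7 with MSC and 82.0 ± 43.1 without. Its log2 fold change was 1.32 (SE 0.48, limma adjusted p = 0.582).

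The MI and MI+MSC libraries overlapped for each of the 10 members, beside 7.05% of tested genes that did not overlap on the higher and 9.60% on the lower side. For Ccl3, the overlap came from MI+MSC library 18, at 399 normalized counts, below MI library 20, at 407. Without MI+MSC library 18, the log2 fold change of Ccl3 was 2.63, and without MI library 13 it was 1.36. Ccr1 had a log2 fold change of 0.89 (SE 0.57, limma adjusted p = 0.662), while Ccl2 stood at -0.24 (SE 0.41), Ccl7 at 0.06 (SE 0.45), Ccl12 at 0.59 (SE 0.80), Ccl6 at 0.45 (SE 0.48), Ccl9 at 0.43 (SE 0.45) and Ccr2 at -0.06 (SE 0.53). An exact permutation test of 3 against 3 libraries cannot give a p below 0.100.

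The sum of the neutrophil markers moved with Ccl3, Ccl4 and Ccr1 among the MSC-treated hearts. The summed neutrophil markers were 8242 and 13603 in MI+MSC libraries 15 and 17, and 2841 in library 18, where Ccl3, Ccl4 and Ccr1 were also lowest. Cxcr2, the neutrophil receptor of CXC chemokines and 1 of the 13 markers, followed the same order, with 1221, 2002 and 304 normalized counts. Between MI+MSC and MI the markers went both ways. Of the 13, 5 had a log2 fold change above 0, and the median was -0.23, with Cxcr2 at 0.82 and Ly6g at -1.18. Across the MI libraries 13, 19 and 20, the marker sums were 2563, 8153 and 6031, so that MI library 19 had neutrophil markers close to those of MI+MSC library 15 but 352 normalized counts of Ccl3 against 1415. Heart muscle markers came to 22641, 24250 and 8095 without MSC and to 3138, 4720 and 12602 with MSC, and were low in the libraries with high Ccl3. Other lists differed between the hearts as well. Endothelial markers (8 genes) summed to 2251 up to 2471 without and 585 up to 1032 with MSC, and platelet markers (9 genes) to 471 up to 659 without and 838 up to 1763 with MSC, in neither case with overlap. The platelet sum rested largely on Pf4, at 1233, 682 and 988 in MI+MSC libraries 15, 17 and 18. Of the 9 platelet markers, only 3 had a log2 fold change above 0, with a median of -0.39. Macrophage markers were at 5463, 13190 and 13727 in MI libraries 13, 19 and 20, and at 21059, 13670 and 22918 in MI+MSC libraries 15, 17 and 18, so that library 17, with the most Ccl3, had the fewest of the MSC-treated hearts. The part of cell makeup in these differences was not tested.

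**Figure D3:**
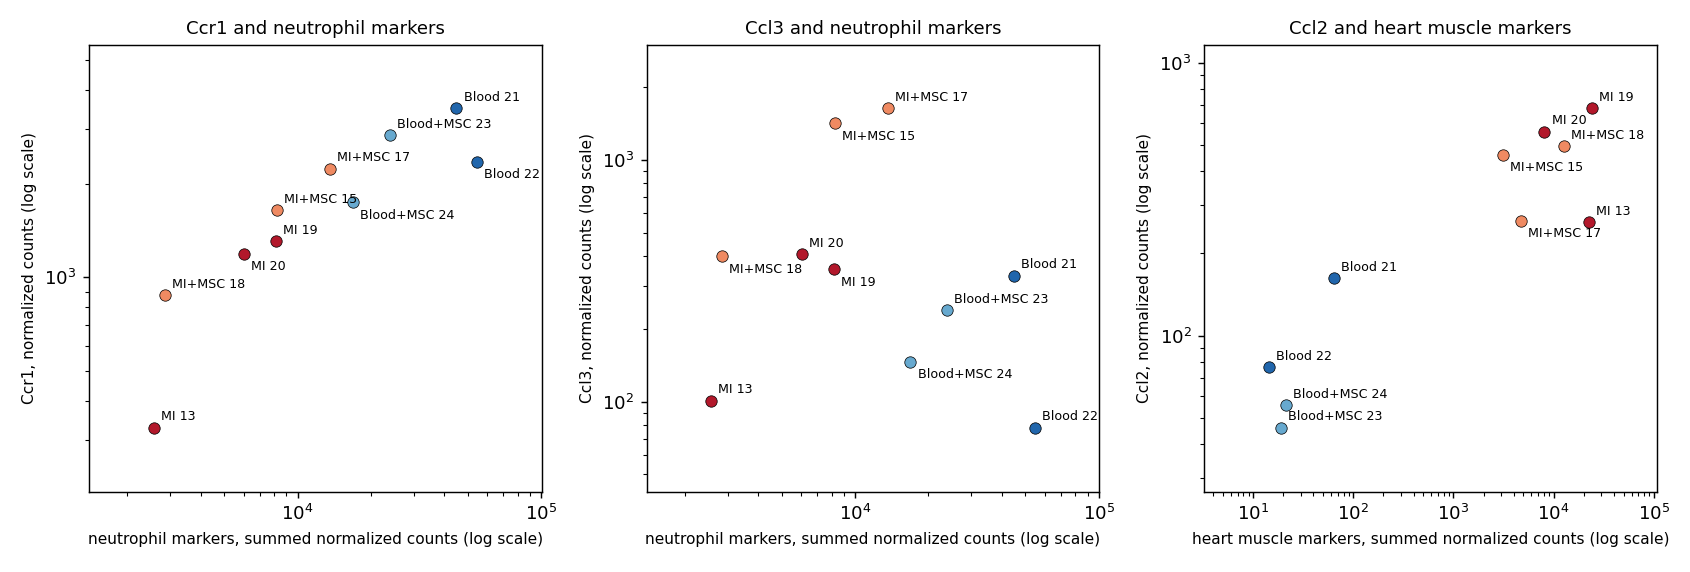
Normalized counts of Ccr1 and Ccl3 against the summed normalized counts of 13 neutrophil markers, and of Ccl2 against those of 8 heart muscle markers, with 1 point per library and log scales on all axes. Among the cardiac libraries, Ccr1 is higher where neutrophil markers are higher. The blood libraries break this order, as Blood library 22 has the most markers but less Ccr1 than Blood library 21. MI+MSC libraries 15 and 17 stand above the rest in Ccl3, and the cardiac libraries lie apart from blood in Ccl2 and muscle markers.

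The effect of MSC in blood was taken from Blood+MSC vs Blood, which shares its Blood libraries with MI vs Blood. No member was called, and limma called 0.00% of all tested genes in either direction, with 848 genes (7.34%) at an unadjusted p under 0.05. edgeR called 0 genes and DESeq2 4 higher (0.0346%) and 175 lower (1.52%), none of them a member. The libraries of 5 members did not overlap, and all 5 were lower with MSC (Ccl2, Ccl7, Ccl12, Ccl6 and Ccl9), beside 15.4% of tested genes on that side (1780 genes, with 2428 on the higher side). Ccl7 and Ccl2 were the members with an unadjusted p under 0.05. Ccl7 averaged 30.0 ± 0.851 normalized counts with MSC and 100.3 ± 28.0 without (SD, n = 2 each). Its log2 fold change was -1.65 (SE 0.55, limma adjusted p = 0.672). Ccl2 averaged 50.8 ± 6.88 with MSC and 119.6 ± 60.7 without, with a log2 fold change of -1.11 (SE 0.51, limma adjusted p = 0.672).

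Ccl12 had a log2 fold change of -1.59 (SE 0.98), Ccl6 of -0.96 (SE 0.59) and Ccl9 of -0.72 (SE 0.55) in blood, each with a limma adjusted p of at least 0.717. Ccl6 averaged 7800.0 ± 1359 normalized counts without and 3993 ± 392 with MSC. The remaining members overlapped, with log2 fold changes of 0.21 (SE 0.84) for Ccl3, 0.49 (SE 0.59) for Ccl4, -0.36 (SE 0.70) for Ccr1 and 0.17 (SE 0.65) for Ccr2. The summed neutrophil markers were also lower with MSC in blood, at 23843 and 16844 against 44886 and 54568, and platelet markers were at 29251 in Blood library 21 against 628 to 1203 in the other blood libraries. The summed monocyte markers (9 genes) were higher with MSC, at 6025 and 8919 against 3872 and 4826, but the genes went both ways. Of the 9, 5 had a log2 fold change above 0, and the median was 0.10 beside 0.11 over all tested genes. Fn1 was at 1.88 and Ly6c2 at -1.91. The part of these markers in the lower values was not tested. With 2 libraries against 2, an exact permutation test cannot give a p below 0.333.

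The interaction, the MSC effect in heart minus that in blood, was called for no member and for no tested gene in limma, with 838 genes (7.26%) at an unadjusted p under 0.05, while DESeq2 called 18 genes (0.156%), none of them a member. Ccl7, the member with an unadjusted p under 0.05, had a difference of 1.71 on the log2 scale (SE 0.71, limma adjusted p = 0.630). Of the 9 members, 8 had a difference above 0 and Ccr2 had -0.23 (SE 0.84). The median was 1.24 over the 9 members and -0.12 over all tested genes. Ccl2 and Ccl4 fell below 0 when both shallowest libraries, MI library 13 and Blood library 21, were left out. The spread left room for sizeable differences, as in Ccl12 at 2.18 (SE 1.26) and Ccl3 at 1.78 (SE 1.09).

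The make-up of the ligand pool was described from levels per kilobase of exon, which allow genes to be set beside each other. In blood, Ccl6 and Ccl9 made up 83.5% to 92.6% of the summed level of the 8 ligands, and Ccl2, Ccl7 and Ccl12 made up 2.40% to 4.89%. In MI, the shares were 39.3% to 44.5% for Ccl6 and Ccl9, 34.4% to 43.0% for the Ccr2 ligands and 16.7% to 21.4% for Ccl3 and Ccl4. MI+MSC library 18 was close to the MI libraries, with 45.1% for Ccl6 and Ccl9 and 33.8% for the Ccr2 ligands. In MI+MSC libraries 15 and 17, Ccl3 and Ccl4 instead held 48.2% and 58.8% and were the leading pair. Ccl5 held less than 1% in each library.

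**Figure D4:**
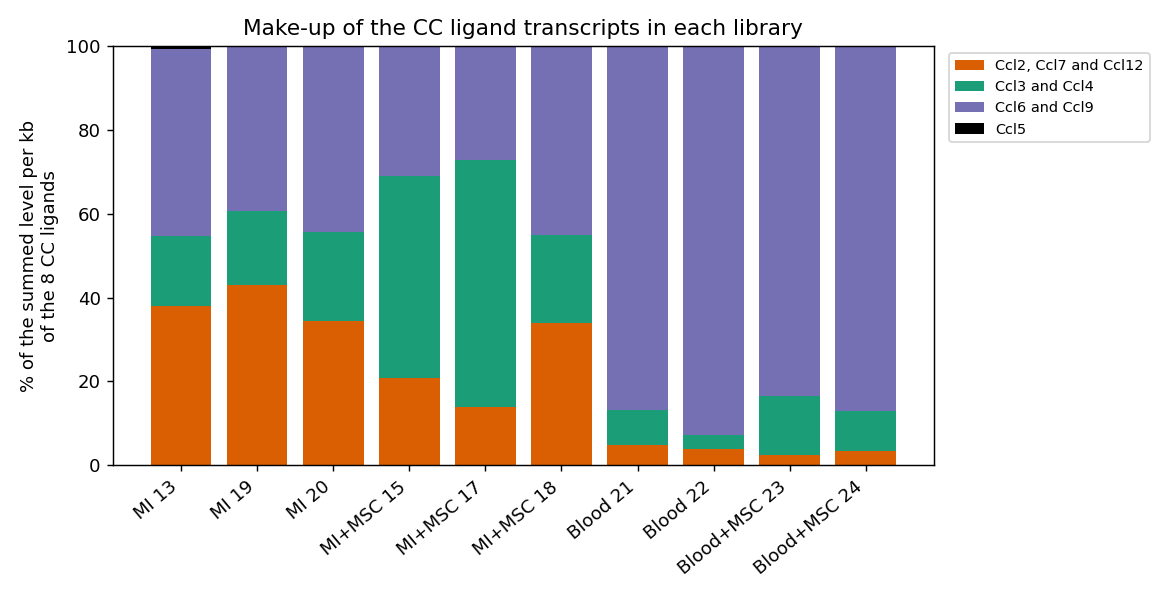
Share of each ligand group in the summed level per kilobase of the 8 CC ligands, in percent, with 1 stacked bar per library. Ccl6 and Ccl9 fill more than 83% of every blood bar, and Ccl3 and Ccl4 are the largest block in MI+MSC libraries 15 and 17 alone.

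By group mean per kilobase, Ccl6 ranked first among the 10 members in Blood (4290.4), Blood+MSC (2196) and MI (749), and Ccl3 ranked first in MI+MSC (1479), ahead of Ccl6 (929). The rank of Ccl3 came from MI+MSC libraries 15 and 17. In MI+MSC library 18, Ccl3 (514) was below Ccl6 (1014) and Ccl7 (523). Ccr1 ranked second in both blood groups, at 1032 and 814. In MI, Ccl7 (447), Ccl2 (439), Ccl3 (369), Ccr1 (332) and Ccl9 (325) followed Ccl6, and the differences between these genes were not tested. Ccl2 and Ccl7 were above Ccr1 and Ccl9 in each MI library. Ccl12 was ninth and Ccl5 last in all 4 groups. Ccr2 stood at 190.3 for MI, 173 for MI+MSC, 77.4 for Blood and 92.6 for Blood+MSC.

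Ratios of reads within a library do not depend on its scaling factor. Ccl6 had between 1.25 and 1.56 reads per read of Ccl9 in heart and from 2.57 to 3.43 in blood, so this ratio separated the tissues without overlap. Ccl2 and Ccl7 kept a ratio of 0.95 to 1.94 in all 10 libraries. The ratio of Ccl3 to Ccl4 was 5.93 (95% exact binomial interval 5.29 to 6.66) and 6.96 (5.65 to 8.65) in MI+MSC libraries 15 and 17, against 3.61 (3.03 to 4.32) in MI+MSC library 18 and 3.66 (2.93 to 4.61) and 3.50 (3.01 to 4.07) in MI libraries 19 and 20. The excess of MI+MSC libraries 15 and 17 was thus larger in Ccl3 than in Ccl4. MI library 13 had 12 and 4 reads of the pair, and its interval, 0.91 to 12.8, covers most of this range.

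Reads of Ccr1 outnumbered those of Ccr2 in every blood library and in none of the MI libraries. Ccr1 has 2838 bases of exon and Ccr2 has 6765, so these reads do not compare the levels of the 2 receptors. Per kilobase, Ccr1 was above Ccr2 in every library, as in MI library 13 (115 against 78.3) and MI+MSC library 18 (309 against 233). Reads of Ccr1 per read of Ccr2 came to 0.62, 0.74 and 0.76 for MI, 1.26, 3.59 and 0.56 for MI+MSC, 8.11 and 3.83 for Blood and 7.41 and 2.02 for Blood+MSC. MI+MSC library 17 lay within the range of blood, above Blood+MSC library 24, and it also had the most neutrophil markers of the cardiac libraries. Intervals cover counting error only.

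**Figure D5:**
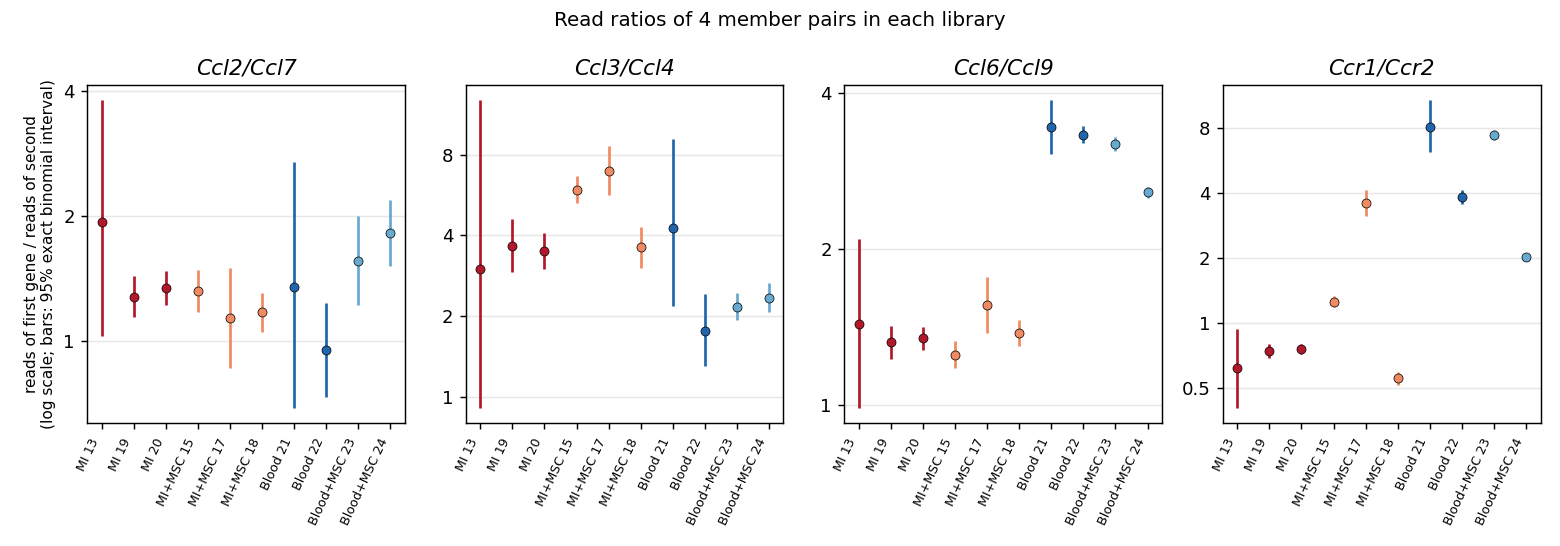
Reads of the first gene per read of the second for 4 pairs of members in each library, on log scales, with 95% exact binomial intervals. Ccl6/Ccl9 is 1.25 to 1.56 in heart and 2.57 to 3.43 in blood, Ccl3/Ccl4 is highest in MI+MSC libraries 15 and 17, and Ccr1/Ccr2 is below 1 in MI and above 2 in blood. The reads are not divided by gene length.

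Most of the other CC chemokines in the table fell short of the mean needed for a test. Of 11 other CC chemokines listed, 9 were in the table and 3 were tested, and of these Ccl24, an eosinophil attractant, was called lower in heart. It averaged 9.3 ± 3.2 normalized counts for MI and 8.2 ± 5.5 for MI+MSC, against 43.9 ± 2.2 for Blood and 75.5 ± 2.0 for Blood+MSC (log2 fold change -2.56, limma adjusted p = 0.000249). Ccl8 and Ccl25 were not called. Among other CC receptors, Ccr3, the eotaxin receptor, was called lower (log2 fold change -2.09, limma adjusted p = 0.00428), and Ccr7 and Ccr9 were not called. None of the atypical receptors Ackr2, Ackr3 and Ackr4 had the mean needed for a test.

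Genes of the signalling path downstream of these receptors were mostly lower in heart. Of 30 listed, 28 were tested, 22 were called lower and 3 higher in heart against blood, beside 18.1% and 25.3% of all tested genes, with a median log2 fold change of -1.21 beside 0.12 over all tested genes. The lower ones included Gnai2, an inhibitory G protein subunit (-1.20), Gnb2 (-1.47), Rac2, a small GTPase of blood cells (-2.39), and Rgs2, a regulator of G protein signalling (-1.21). With MSC, 0 of the 28 were called in heart and 0 in blood. As neutrophil markers were lower in heart as well, with 12 of 13 called, the part of cell makeup was not tested.

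For each member, the genes with the most similar course over the 10 libraries were taken from all tested genes, by the mean absolute difference of log2 levels centred on their own mean. For Ccl2, the closest of all tested genes was Ccl7, at 0.22, and outside the members AI506816 (0.29), Fstl1 (0.29) and Lpl (0.32). Outside the members, Ccl7 was closest to Cd93 (0.38), Fstl1 (0.42) and Lonrf3 (0.42), and Ccl12 to Cd93 (0.50), Rnase4 (0.54) and Pdpn (0.57). Ccl3 was closest to Bcl2a1a (0.28), Gadd45b (0.31) and Slc7a11 (0.32), and Ccl4 was the 27th closest, at 0.48. Ccl4 itself was closest to Jun (0.16), Ccnl1 (0.19) and Tgoln1 (0.22). Ccl6 stood near Trim11 (0.19), Qsox1 (0.21) and Bnip3l (0.21), and Ccl9 near Zfyve16 (0.10), Gm57050 (0.12) and Rab11a (0.13). Ccr1 was closest to a gene without a symbol (0.13), followed by Resf1 (0.17) and Ifitm2 (0.17), and Ccr2 was near P2rx7 (0.19), Ms4a6c (0.19) and Lat2 (0.21). The median difference over all tested genes ran from 0.68 for Ccl9 to 1.53 for Ccl12, and the 10 libraries share their differences in tissue and depth, so no test was made.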

How the data were processed

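For the 10 libraries, ribosomal RNA was removed and strand-specific read pairs were sequenced. The authors trimmed reads (Trimmomatic), removed duplicates (Picard), aligned them to GRCm39 (STAR), counted them by strand (featureCounts) and left out mitochondrial reads. The signal values deposited are counts that the authors divided by each library's DESeq2 size factor. A table named as raw counts held the same 281850 values and was not used. In each library 100% of values were whole multiples of 1 read (tolerance 0.01), which gave the recovered reads, and 27906 of 28185 identifiers were in GENCODE's GRCm39 annotation. A different counting of overlapping genes or removal of duplicates would change low counts most.

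The members and gene lists were chosen with earlier results of these data known. limma (3.58.1) with an intensity trend was fitted in R (4.3.3) to log2(value + 2) of 11549 genes whose mean reached 10, with 1 mean per group. Fold changes are on that scale, so those of low genes come out too small. A call needed a Benjamini-Hochberg adjusted p under 0.05 and a log2 fold change of at least 0.5 (the interaction the p alone). Single members were compared in scipy (1.17.1) by exact permutation tests, two-sided. The scripts were tested on simulated reads. Alternatives were pseudocounts of 1 and 5, no filter or a mean of 20, TMM or library size scaling, edgeR (4.0.16) and DESeq2 (1.42.0) on the recovered reads, voom with sample quality weights, the compared groups alone, each library left out, and, added after seeing the data, both shallowest libraries left out. Named genes are all members, up to 4 genes per pathway list with the highest mean, beside those called among fewer than 5 tested, and the 3 genes most alike to each member. 1 gene of the receptor list is not reported here.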

Additional observations from a re-analysis of the deposited data

How the results depend on the processing

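Depth limits the low members most, as 1 read is worth 8.40 normalized counts in MI library 13 and 7.07 in Blood library 21, the shallowest libraries. No paired analysis was possible because the library numbers in the labels are all different, so that no number is shared between groups. The fit of the compared groups alone could not be made for heart vs blood and the interaction, which use all groups. Counts of called genes moved as follows. For MI+MSC vs MI, 0 became 76 with DESeq2 and 261 with voom and sample quality weights. For Blood+MSC vs Blood, 0 became 179 with DESeq2, 1 without both shallowest libraries and 0 to 1504 when 1 library was left out (1504 without Blood library 22). For MI vs Blood, 4008 became 1760 in the groups alone and 2590 with voom. For MI+MSC vs Blood+MSC, 1627 became 3693 (edgeR), 3353 (DESeq2), 3784 (groups alone), 4884 (voom), 4593 (without both shallowest) and 272 to 2716 when 1 library was left out (272 without Blood+MSC library 23). For heart vs blood, 5008 became 3164 without Blood+MSC library 23, in a range of 3164 to 5366. For the MSC effect, heart minus blood, 0 became 18 with DESeq2 and 0 to 1086 when 1 library was left out (1086 without Blood library 22).

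In the permutation tests of heart against blood, Ccl12 ran from 2.03 to 3.01, Ccl3 from 1.098 to 1.93, Ccl4 from 0.50 to 1.05, Ccl9 from -0.91 to -0.52 and Ccr2 from 0.86 to 1.24 when 1 library was left out, with p on either side of 0.05. Without both shallowest libraries, Ccl3 was at 2.24 (p under the threshold), Ccl9 at -0.35 and Ccr1 at -0.72 (p above it), and Ccl5 at -0.091 against 0.40. With library size scaling, Ccl9 was at -0.47 (p above) and Ccr2 at 1.33 (p under).

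Signs turned only in values that were not called as reported. Among them, Ccl3 in MI vs Blood was called under another setting, at 2.25 without both shallowest libraries. In MI+MSC vs MI, Ccl7 was at -0.068 (library size), -0.17 (edgeR), -0.17 (DESeq2), -0.31 (voom) and -0.53 (without both shallowest), Ccl12 at -0.23 (edgeR), -0.14 (DESeq2), -0.40 (voom) and -0.56 (without both shallowest), Ccl6 at -0.045 and Ccl9 at -0.10 without both shallowest. With 1 library left out, Ccl2 ran from -0.65 to 0.043, Ccl7 from -0.53 to 0.45, Ccl12 from -0.56 to 1.35, Ccl6 from -0.045 to 0.74, Ccl9 from -0.10 to 0.72 and Ccr2 from -0.61 to 0.34. In Blood+MSC vs Blood, Ccl3 was at -0.13 (DESeq2) and -0.82 to 1.24, Ccr1 at -0.72 to 0.0033 and Ccr2 at -0.087 (without both shallowest) and -0.41 to 0.74. In MI vs Blood, Ccl3 ran from -0.44 to 1.62 and Ccl4 from -0.10 to 0.83. In the MSC effect, heart minus blood, Ccl2 was at -0.071 and Ccl4 at -0.10 without both shallowest, and Ccr2 ran from -0.81 to 0.34. The cause of these moves was not tested.

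The share of higher among called genes in heart vs blood was 58.3% with the deposited scaling, 52.4% with TMM and 73.8% with library size. It was 61.2%, 55.7% and 82.3% in MI vs Blood and 58.5%, 48.1% and 62.4% in MI+MSC vs Blood+MSC. The median log2 fold change of all tested genes in heart vs blood was 0.12, 0.03 and 0.40. Relative to that median, Ccl2 was at 2.35, 2.35 and 2.37, and Ccl6 at -2.07, -2.07 and -2.04.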
